A study of Rattus norvegicus with 25 samples.

Results

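The genes described here make, lengthen, desaturate and activate fatty acids. They are Acly, Acaca, Fasn, Elovl6, Fads1, Fads2 and Acsl3, chosen by name, and they were found by their symbols in the array's probe annotation. All 7 had a probe, and together they had 8 of the 9911 gene probes on the array. The study profiled liver RNA of male Sprague-Dawley rats on 25 arrays of 1 colour, with 1 rat to an array by the labels. In the repletion group (PQQ(-/+), 4 arrays), rats raised on the basal ASD diet without pyrroloquinoline quinone (PQQ), a redox cofactor, were injected intraperitoneally from 6.5 weeks of age with 1.5 mg PQQ per kg every 12 h for 36 h. In the depletion group (PQQ(+/-), 3 arrays), rats raised on the PQQ-supplemented ASD diet were moved to the diet without PQQ at the same age, for 48 h. The deficient group (PQQ(-), 6 arrays) stayed on the basal diet and the supplemented group (PQQ, 6 arrays) on that diet with PQQ. Dams of these 4 groups were on their diets for the last 10 days of gestation, and the pups kept the dam's diet. The fifth group (6 arrays) was fed standard laboratory chow, so it differs from the others in the whole diet and not in PQQ alone. No group here was injected without PQQ, the labels do not spell out ASD, and no source used here gives the feeding state or the hour of collection.

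In the liver, surplus carbohydrate is turned into fat along a short chain of enzymes. Citrate exported from mitochondria is cleaved to acetyl-CoA, acetyl-CoA is carboxylated to malonyl-CoA, fatty acid synthase builds palmitate, and elongases and desaturases in the endoplasmic reticulum turn palmitate and dietary essential fatty acids into longer and more unsaturated chains. Transcription of these genes is raised by feeding and insulin through SREBP-1c and ChREBP, and desaturase genes are repressed by polyunsaturated fatty acids in the diet.

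Values are log2 intensities after background correction and quantile normalization, and a log2 difference of 1 is a doubling. Chow 1 and 2 and supplemented 5 and 6 were pairs of nearly identical arrays, with log2 ratios spread by 0.108 and 0.109 (median absolute deviation), where other pairs that shared a group and an array set had 0.202 to 0.379. The mean of such a pair stands as 1 sample under the lower number, so there are 23 samples. Arrays also fell into 5 sets that share defective spots. Chow was split over set 1 (arrays 1 to 3) and set 5 (arrays 4 to 6), and supplemented over set 1 (array 1), set 2 (arrays 2 and 3) and set 3 (arrays 4 to 6). Deficient arrays 1 to 5 were in set 3 and array 6 in set 4. All repletion arrays were in set 5 and all depletion arrays in set 4. Deficient 6 and chow 6 stood apart in the authors' value table, with medians of 0.921 and 0.972 against 0.716 to 0.756 on the other arrays. The median intensity minus background was 103.2 to 281 per array, and 82.8% to 89.8% of gene probes were above background. With few arrays a group, precision is limited throughout. All 4 hepatocyte markers on the array (Alb, Apoa1, Fgb and Hp) were above background on every array.

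The brightest probe of each of the 7 genes was above background on 25 of 25 arrays, passed the filter on dim probes and stands for its gene. Acaca has a further probe, drawn from NM_022193, which was above background on 7 of 25 arrays and did not pass the filter. Across the 23 samples Fasn ranged most widely, over 2.52 on the log2 scale or 5.72-fold, and Acaca least widely, over 1.41 or 2.66-fold. In RNA of whole liver, fewer cells that express a gene and less of its RNA per cell cannot be told apart. An F test over the 5 groups was passed by 6 of the 7 genes, against 38.7% of all probes tested. The exception was Acaca, with an adjusted p of 0.0525. The plot of values by sample shows chow as the group with the lowest mean for each of the 7 genes.

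**Figure D1:**
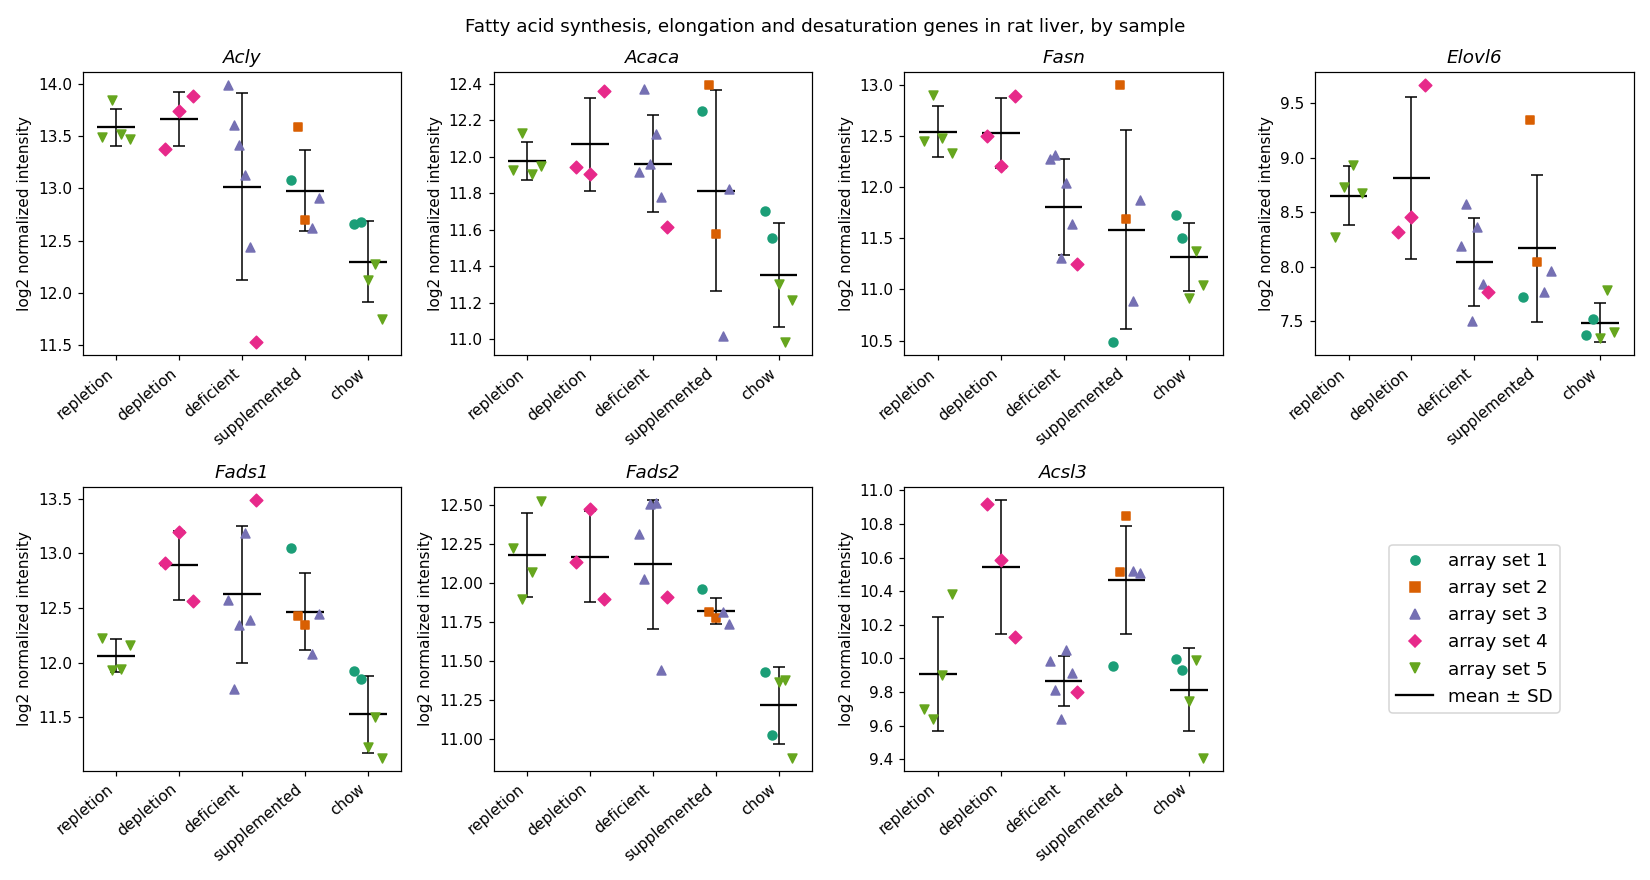
Log2 normalized intensity of each of the 7 genes by group (x axis), 1 point a sample, coloured and shaped by array set; the thick line is the group mean and the bars are 1 SD. Groups run from repletion on the left to chow on the right. Each gene's chow mean is its lowest, Fasn in the supplemented group runs from 10.48 to 13.00, and Acly in the deficient group runs from 11.52 to 13.99.

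Acly, ATP citrate lyase, supplies the cytosolic acetyl-CoA from which fatty acids and sterols are made. It read 13.50, 13.85, 13.52 and 13.48 in repletion, 13.38, 13.74 and 13.88 in depletion, and from 11.52 to 13.99 around a median of 13.27 in deficient rats. Supplemented samples 1 to 5 read 13.08, 13.59, 12.69, 12.62 and 12.91, and chow samples 1, 3, 4, 5 and 6 read 12.66, 12.68, 12.12, 12.28 and 11.75. Every repletion and depletion sample was above every chow sample, while deficient 5 and 6 fell inside or below the chow range. Group means were ordered depletion, repletion, deficient, supplemented and chow. Of neighbours in that order, the gap between supplemented and chow (0.68) was larger than the larger SD of the 2 groups, and the other gaps were not. No pairwise difference passed. The largest, repletion minus chow, was 1.29 (SE 0.34, 95% interval 0.58 to 2.00, adjusted p = 0.0635). The call turned on deficient 6, the sample with the lowest Acly. Without it the difference from chow passed in deficient (1.02, adjusted p = 0.00259), repletion (1.29, adjusted p = 0.00678) and supplemented rats (0.68, adjusted p = 0.0485). Repletion minus chow also passed without deficient 1 (1.29, adjusted p = 0.0416).

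Acaca encodes acetyl-CoA carboxylase alpha, which makes malonyl-CoA and sets the pace of fatty acid synthesis. It averaged 11.98 ± 0.10 in repletion (SD, n = 4), 12.07 ± 0.26 in depletion (n = 3), 11.96 ± 0.27 in deficient (n = 6), 11.82 ± 0.55 in supplemented (n = 5) and 11.35 ± 0.29 in chow (n = 5). From the highest mean down, the order was depletion, repletion, deficient, supplemented and chow, and none of the gaps between neighbours exceeded the larger SD. Deficient rats were 1.53-fold above chow (log2 difference 0.61, SE 0.20, adjusted p = 0.0238), with 6 of 6 deficient samples above the chow mean and overlapping groups. That call was lost without deficient 2, chow 4, chow 5 or chow 6, where the difference was 0.52 to 0.60 and the adjusted p 0.0523 to 0.0786. The repletion and supplemented groups differed from chow by 0.63 and 0.46 without passing, and the supplemented difference passed without supplemented 4 (0.66, adjusted p = 0.0343). The dim probe differed from chow by 0.08 in deficient, 0.11 in repletion and -0.00 in supplemented rats, on signals near background.

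Fasn, fatty acid synthase, builds palmitate from acetyl-CoA and malonyl-CoA. It read 12.45, 12.90, 12.48 and 12.33 in repletion and 12.50, 12.21 and 12.89 in depletion. Deficient rats read 11.25 to 12.31 with a median of 11.84. Supplemented samples 1 to 5 read 10.48, 13.00, 11.69, 10.89 and 11.87, and chow samples 1, 3, 4, 5 and 6 read 11.72, 11.51, 10.91, 11.38 and 11.04. Repletion lay wholly above deficient and chow, and supplemented samples spanned from below the lowest chow sample to above the highest repletion sample. The means were ordered repletion, depletion, deficient, supplemented and chow, and the gap between depletion and deficient (0.73) alone exceeded the larger SD of the 2 groups. No difference passed. Repletion minus supplemented was 0.96 (SE 0.35, interval 0.23 to 1.69, adjusted p = 0.0599), and it passed with the array set as a fixed block (2.56, adjusted p = 0.0178). That block ties repletion to supplemented only through chow and supplemented 1, which has the lowest Fasn of its group. Repletion minus chow was 1.23 (SE 0.35, adjusted p = 0.0813). Without supplemented 2, the highest sample, repletion passed against supplemented (1.31, adjusted p = 0.00531), chow (1.23, adjusted p = 0.025) and deficient (0.74, adjusted p = 0.0349). Without deficient 6 it passed against supplemented (0.96, adjusted p = 0.0436) and chow (1.23, adjusted p = 0.0497).

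Elovl6 elongates palmitate to stearate. It read 8.28, 8.73, 8.93 and 8.67 in repletion, 8.32, 8.46 and 9.67 in depletion, and 7.50 to 8.57 around 8.02 in deficient rats. Supplemented samples 1 to 5 read 7.72, 9.35, 8.04, 7.77 and 7.96, and chow samples 1, 3, 4, 5 and 6 read 7.38, 7.52, 7.35, 7.79 and 7.40. Chow was the tightest group, and repletion and depletion lay wholly above it. Means were ordered depletion, repletion, supplemented, deficient and chow, and the gap between deficient and chow (0.55) alone exceeded the larger SD. Repletion minus chow was 1.17 (2.24-fold, SE 0.30, adjusted p = 0.0523), the value nearest to the threshold among those that missed it against chow. It passed without supplemented 2, deficient 6, depletion 1 or depletion 3 (adjusted p 0.0157 to 0.0483, difference 1.17 in each). Without supplemented 2, repletion also passed against supplemented (0.78, adjusted p = 0.0329) and deficient rats (0.61, adjusted p = 0.0402), against 0.49 and 0.61 with it.

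Fads1 and Fads2, the delta-5 and delta-6 desaturases, put double bonds into linoleic and alpha-linolenic acid on the way to arachidonic acid and the long omega-3 acids. Both passed in deficient and in supplemented rats against chow, so their promoters are printed here. In RefSeq's GRCr8 annotation they are neighbours on chromosome 1. The starts given with their promoters are on opposite strands and 80.7 kb apart. Acsl3, printed with them, is the other gene with passed differences in several comparisons. The table used here has a promoter for 4 of the 7 genes, Acly being the fourth. Each line gives the 250 bases before the transcription start given with that promoter, 5′ to 3′ on the gene's strand. CCAAT (the NF-Y box, searched on both strands) is in capitals. RefSeq places Acsl3 from 87563601, just after its window. It places the Fads1 start at 216252605 and the Fads2 end at 216172190, so part of each window lies inside the gene. The unprinted Acly window (chr10:85963632-85963881, minus strand) lies wholly inside the RefSeq gene (85912402-85964605).
Fads1, chr1:216252442-216252691, plus strand: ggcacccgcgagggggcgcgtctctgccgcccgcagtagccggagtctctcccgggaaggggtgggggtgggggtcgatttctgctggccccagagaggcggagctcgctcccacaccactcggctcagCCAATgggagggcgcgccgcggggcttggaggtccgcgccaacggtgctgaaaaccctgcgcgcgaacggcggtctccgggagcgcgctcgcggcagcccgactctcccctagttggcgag
Fads2, chr1:216172034-216172283, minus strand: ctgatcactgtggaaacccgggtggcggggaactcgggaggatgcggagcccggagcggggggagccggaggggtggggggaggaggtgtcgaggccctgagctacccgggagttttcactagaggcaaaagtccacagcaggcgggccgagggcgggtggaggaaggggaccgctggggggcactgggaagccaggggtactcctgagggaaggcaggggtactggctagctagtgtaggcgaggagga
Acsl3, chr9:87563351-87563600, plus strand: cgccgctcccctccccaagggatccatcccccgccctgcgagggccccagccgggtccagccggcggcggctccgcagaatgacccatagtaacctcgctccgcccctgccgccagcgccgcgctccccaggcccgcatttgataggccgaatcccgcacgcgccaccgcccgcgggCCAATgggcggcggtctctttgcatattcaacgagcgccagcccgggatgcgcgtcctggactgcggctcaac
The Fads1 and Acsl3 boxes begin 121 and 73 bases before the start used here, and the unprinted Acly box 71 bases before it. Of the 4 promoters, taken with 50 bases after the start, 3 held CCAAT, as did 37.5% of 33365 promoters of that length. TCACNCCAC, a sterol response element type, was in 0 of the 4 and 1.12% of all, and the E-box CACGTG in 0 of the 4 and 6.43% of all. These counts describe letters in a window and not binding.

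Fads1 read 12.22, 11.93, 11.94 and 12.16 in repletion, 12.91, 13.20 and 12.56 in depletion, and 11.76 to 13.49 around 12.48 in deficient rats. Supplemented samples 1 to 5 read 13.05, 12.43, 12.34, 12.07 and 12.44, and chow samples 1, 3, 4, 5 and 6 read 11.93, 11.85, 11.23, 11.50 and 11.13. Every repletion, depletion and supplemented sample was above every chow sample, but repletion 2 and 3 only by a narrow margin and with chow 1 and 2 averaged, since array chow 2 alone read 12.045. Deficient 2 was the 1 deficient sample inside the chow range. Fads1 was 2.14-fold higher in deficient rats than in chow rats (log2 difference 1.10, SE 0.24, adjusted p = 0.00222) and 1.92-fold higher in supplemented rats than in chow rats (0.94, SE 0.25, adjusted p = 0.0221). Repletion minus chow was 0.54 without passing (adjusted p = 0.383). The deficient call held whichever sample was left out. The supplemented call was lost without supplemented 1, chow 4, chow 5 or chow 6 (0.80 to 0.94, adjusted p 0.0513 to 0.0721). Means were ordered depletion, deficient, supplemented, repletion and chow, and the last 2 gaps (0.40 and 0.54) exceeded the larger SD. Repletion minus deficient was -0.56 (adjusted p = 0.0936), and -0.73 (adjusted p = 0.0204) without deficient 2.

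Fads2 read 12.22, 11.89, 12.07 and 12.53 in repletion, 12.13, 12.47 and 11.90 in depletion, and 11.44 to 12.51 around 12.17 in deficient rats. Supplemented samples read 11.96, 11.81, 11.78, 11.81 and 11.74, and chow samples 1, 3, 4, 5 and 6 read 11.43, 11.03, 11.37, 11.38 and 10.88. No sample of the 4 ASD-diet groups was within the chow range, although deficient 5 cleared the highest chow sample by a narrow margin. Fads2 was 1.95-fold higher in repletion than in chow (0.96, SE 0.19, adjusted p = 0.0124), 1.87-fold higher in deficient than in chow (0.90, SE 0.17, adjusted p = 0.000667) and 1.52-fold higher in supplemented than in chow (0.60, SE 0.18, adjusted p = 0.0357). It was the 1 gene of the 7 that passed in all 3 comparisons with chow. The first 2 calls held whichever sample was left out. The supplemented call was lost without any 1 of the 5 supplemented samples or of chow 4, chow 5 and chow 6 (0.52 to 0.65, adjusted p 0.0519 to 0.108). Among the ASD-diet groups the means lay between 11.82 and 12.18, and none of their differences passed. Their order was repletion, depletion, deficient and supplemented, and the gap between supplemented and chow alone exceeded the larger SD.

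Acsl3, a long-chain acyl-CoA synthetase that activates fatty acids for lipid synthesis, had its highest means in depletion and supplemented rats, followed by repletion, deficient and chow. It read 9.70, 9.64, 9.90 and 10.39 in repletion, 10.92, 10.59 and 10.13 in depletion, and 9.64 to 10.05 around 9.86 in deficient rats. Supplemented samples 1 to 5 read 9.95, 10.51, 10.85, 10.52 and 10.51, and chow samples 1, 3, 4, 5 and 6 read 10.00, 9.93, 9.75, 9.99 and 9.41. All depletion samples were above all deficient samples, and supplemented 1 was the 1 supplemented sample at the level of the deficient and chow samples. The gap between the supplemented and repletion means (0.56) was larger than the larger SD of the 2 groups, and the other gaps between neighbours were not. Acsl3 was 1.52-fold lower in deficient than in supplemented rats (log2 difference -0.60, SE 0.17, adjusted p = 0.0483), and 0 of 6 deficient samples exceeded the supplemented mean. It was 1.48-fold lower in repletion than in supplemented rats (-0.56, SE 0.18, adjusted p = 0.0355), 1.60-fold higher in depletion than in deficient rats (0.68, SE 0.19, adjusted p = 0.0329) and 1.57-fold higher in supplemented than in chow rats (0.65, SE 0.17, adjusted p = 0.0213).

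The Acsl3 calls changed when single samples were left out. The deficient minus supplemented call passed in 6 of 23 fits that each left out 1 sample, with differences of -0.73 to -0.51 and adjusted p up to 0.152, and it was also lost with arrays scaled to a common median, with the authors' value table and with no filter on dim probes. It was kept only without supplemented 1, deficient 4, depletion 1, depletion 3, chow 6 or repletion 4. Repletion minus supplemented was lost without any of supplemented 2 to 5 or repletion 1 to 3 (-0.56 to -0.47, adjusted p up to 0.115). Depletion minus deficient was lost without depletion 1, depletion 2, deficient 2 or deficient 3 (0.49 to 0.67, adjusted p up to 0.179). Supplemented minus chow was lost without supplemented 3, chow 4 or chow 6 (0.55 to 0.64, adjusted p up to 0.076).

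Comparisons with chow ask how far the ASD diets differ from laboratory chow, whatever their PQQ, and all 3 share the same chow samples. In repletion 1 of 7 genes was called, higher, beside 0.572% of all probes called higher. In deficient 3 of 7 were called, all higher, beside 15.4%, and in supplemented 3 of 7, all higher, beside 4.5%. The difference was above 0 for 7 of 7 genes in each, with medians over the 7 of 0.96 in repletion, 0.61 in deficient and 0.65 in supplemented, while the medians over all probes tested were -0.00, 0.03 and 0.03. In repletion 6 of the 7 genes, all but Acsl3, had every sample above every chow sample, beside 3.5% of all probes, and with arrays not averaged Fads1 overlapped and 5 of 7 remained. That count was 1 of 7 in deficient rats beside 6.37%, and 2 of 7 in supplemented rats beside 4.53%. The largest estimates in repletion were those of Acly, Fasn and Elovl6, whereas in deficient and supplemented rats the largest was that of Fads1.

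**Figure D2:**
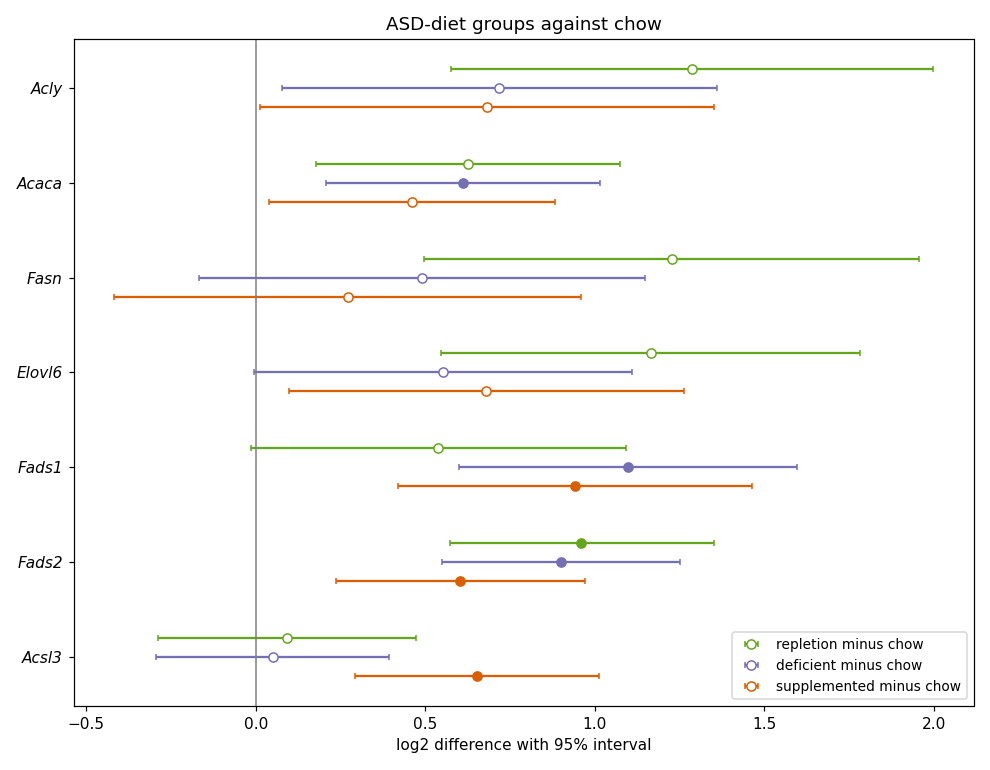
Log2 difference from chow (x axis) of each gene in repletion, deficient and supplemented rats, with 95% intervals; filled points passed the adjusted threshold of 0.05 and open points did not. Every point lies to the right of 0, Fads2 is filled in all 3 groups, and Acsl3 in supplemented rats (0.65) stands away from its values in repletion (0.09) and deficient rats (0.05).

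Comparisons with the supplemented group set rats without dietary PQQ, rats from which it was withdrawn and rats injected with it after a basal diet against rats fed it throughout, and they share the supplemented samples. In repletion 1 of 7 genes was called, lower (Acsl3), beside 10.5% of all probes called lower. In depletion 0 of 7 were called by limma, beside 0.184% of all probes, and 1 of 7 (Fasn, 0.95, SE 0.38, adjusted p = 0.239) had an unadjusted p under 0.05. That last count was 6 of 7 with arrays scaled to a common median, where the median over all probes was 0.14, and 3 of 7 with the authors' value table, with 0 of 7 called in both. In deficient 1 of 7 was called, lower (Acsl3), beside 1.54% of all probes. Medians over the 7 genes were 0.36 in repletion, 0.42 in depletion and 0.15 in deficient rats, against -0.03, 0.01 and 0.00 over all probes. Intervals were wide. For Fasn the deficient minus supplemented difference of 0.22 had a 95% interval of -0.44 to 0.88. For Acly the difference of 0.04 had one of -0.60 to 0.68, so for that gene a change of 1.5-fold either way was not excluded.

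**Figure D3:**
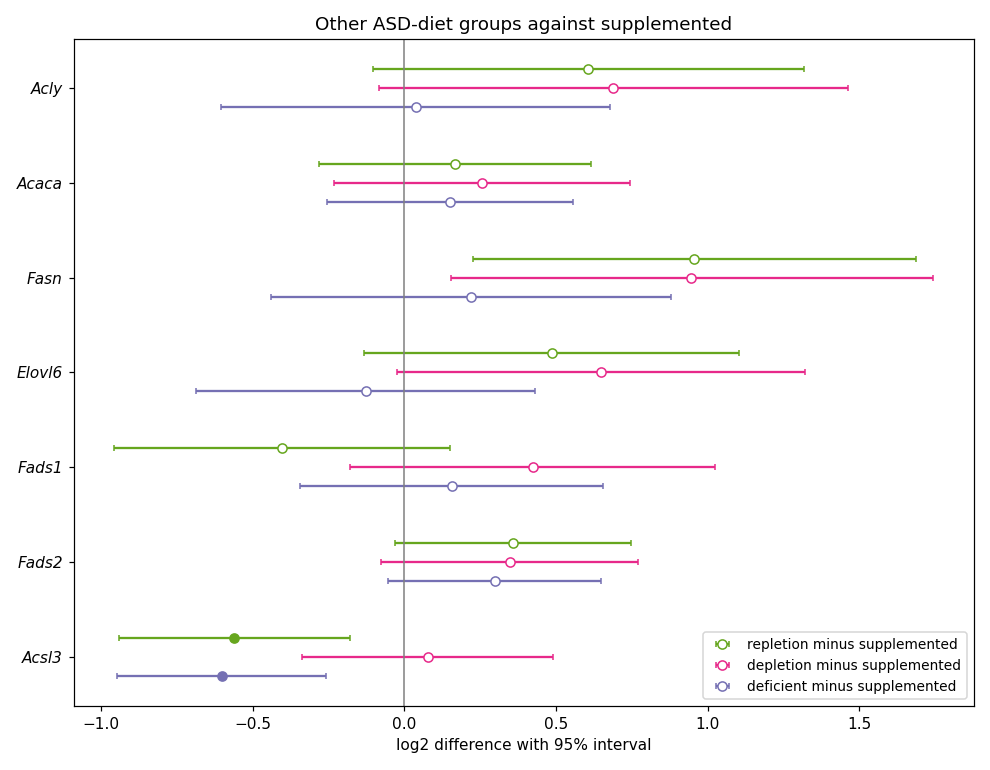
Log2 difference from the supplemented group (x axis) of each gene in repletion, depletion and deficient rats, with 95% intervals; filled points passed the adjusted threshold of 0.05. The 2 filled points are Acsl3 in repletion (-0.56) and deficient rats (-0.60), and Fasn has the largest estimates, 0.96 in repletion and 0.95 in depletion.

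Against deficient rats, repletion compares rats injected with PQQ with rats kept on the basal diet. Depletion compares a recent lack of PQQ with one that began before birth. No group was injected without PQQ, and no deficient array is in set 5 with repletion. PQQ, the injections and the array set thus cannot be told apart in repletion minus deficient. In repletion 0 of 7 genes were called by limma, beside 36.3% of all probes, and 3 of 7 had an unadjusted p under 0.05. Those were Fasn (0.74, adjusted p = 0.0942), Elovl6 (0.61, adjusted p = 0.0999) and Fads1 (-0.56, adjusted p = 0.0936). Fasn alone had every repletion sample above every deficient sample, 1 of 7 genes beside 11.6% of all probes. In depletion 1 of 7 was called, higher (Acsl3), beside 2.63% of all probes, and the same gene was the 1 with no overlap, beside 4.56%. The median over the 7 genes was 0.65 in depletion minus deficient, against 0.03 over all probes. Scaling arrays to a common median in place of quantile normalization moved the all-probe median to 0.15 there and to 0.14 in depletion minus supplemented.

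Because array set and diet group are partly tied, each difference was also estimated with the set as a block. The block ties repletion to other ASD-diet groups only through chow, depletion only through deficient 6, and chow to the ASD-diet groups outside set 5 only through supplemented 1. With a fixed block, the called genes were 4 of 7 in repletion minus chow (beside 2.03% of all probes), 3 of 7 in depletion minus deficient (39.9%) and 3 of 7 in depletion minus supplemented (27.8%). Fasn was among them in each, at 1.43 (adjusted p = 0.0227), 1.28 (adjusted p = 0.0318) and 1.82 (adjusted p = 0.0223), as was Acly, at 1.54, 2.14 and 2.69. Acaca and Fads2 passed with it in repletion minus chow and Acaca in depletion minus supplemented. They were 1 of 7 in repletion minus supplemented (1.71%), where Fasn (2.56, adjusted p = 0.0178) passed and Acsl3 no longer did, and 0 of 7 in deficient minus supplemented (0.385%), repletion minus deficient (1.47%), supplemented minus chow (2.77%) and deficient minus chow (2.07%). At an unadjusted p under 0.05, those 4 had 2 genes in deficient minus supplemented, 1 in repletion minus deficient, 2 in supplemented minus chow and 3 in deficient minus chow. Fads1 and Fads2 against chow were as large or larger with it (1.35 and 1.12 in deficient, 1.16 and 0.73 in supplemented), with SEs of 0.36 to 0.44, and did not pass. Acsl3 in depletion minus deficient (0.75) still passed, and in deficient minus supplemented it was -0.63 without passing. With the fixed block Fasn and Acsl3 were no longer above chow in supplemented (-1.13 and -0.01) or in deficient rats (-0.59 and -0.65), none of them called. Of 56 differences, 10 changed direction with the fixed block, 2 of them called without it. Those not called also took in Fads1 in depletion minus supplemented (-0.41) and in depletion minus deficient (-0.60). Of the called ones, Acsl3 changed direction in repletion minus supplemented (0.20, adjusted p = 0.92) and in supplemented minus chow (-0.01, adjusted p = 0.993).

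Repletion and chow 4 to 6 lie together in set 5, so this comparison can be made within a set. Within it 5 of 7 genes passed, all higher in repletion, beside 0.608% of all probes. They were Acly (1.54, SE 0.16, adjusted p = 0.00539), Fasn (1.43, SE 0.17, adjusted p = 0.0112), Elovl6 (1.14, SE 0.18, adjusted p = 0.0378), Acaca (0.81, SE 0.12, adjusted p = 0.0287) and Fads1 (0.78, SE 0.13, adjusted p = 0.0453). Fads2 was at 0.97 (SE 0.18, adjusted p = 0.0584). The 3 chow samples of set 5 include chow 6, which stood apart in the authors' value table. It has the lowest Acly, Fads1, Fads2 and Acsl3 of the chow group. Set 4 holds 1 deficient sample, deficient 6, which stood apart in the authors' value table and has the lowest Acly, so depletion minus deficient within it compares depletion with that sample and does not test the group. There Acly was at 2.14, Fasn at 1.28 and Acsl3 at 0.75, and the fit, which assumes that the lone sample varies like the others, called the first pair and not Acsl3 (2 of 7 beside 18.8% of all probes). Set 1 likewise holds 1 supplemented sample, supplemented 1, which has the highest Fads1 of its group. There Fads1 was at 1.16, the 1 gene of 7 called (beside 2.34%), Fads2 at 0.73 and Fasn at -1.13, again without a test of the group. Within set 3, 0 of 7 passed in deficient minus supplemented by limma, beside 0.184%, and Acsl3 was at -0.63 (adjusted p = 0.101), while 2 of 7, Acaca and Acsl3, had an unadjusted p under 0.05.

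**Figure D4:**
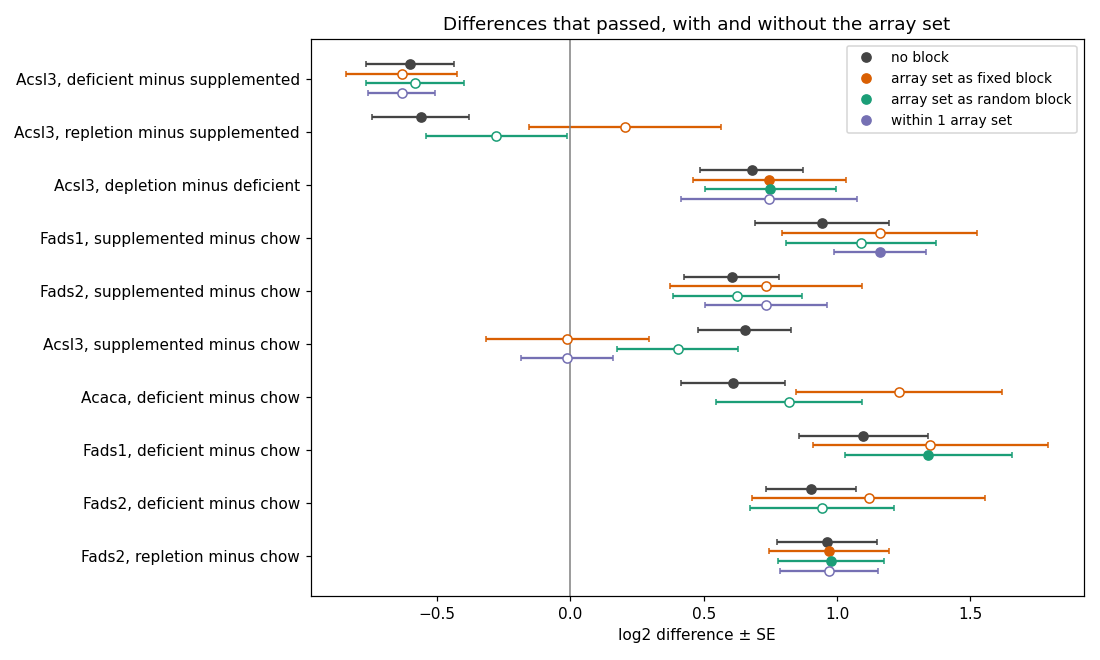
The 10 differences that passed without a block (grey), with the array set as a fixed block (orange), as a random block (green) and within the 1 array set that holds both groups (purple, where there is one), as log2 difference ± SE; filled points passed. Fads1 and Fads2 stay between 0.60 and 1.35 throughout, and Acsl3 moves to 0.20 and -0.01 under the fixed block in repletion minus supplemented and supplemented minus chow.

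Over the 23 samples' deviations from their group means, Fasn and Elovl6 had a Pearson r of 0.78, Acly and Acaca 0.61, Acly and Fasn 0.55, and Acaca and Fasn 0.51. Within group and array set, over 21 samples, these were 0.78, 0.51, 0.63 and 0.78. Fads1 and Fads2 had 0.29 and, within group and set, 0.51. Fads1 with Fasn had -0.21 and Acsl3 with Acaca -0.26. Supplemented 2 had the highest Fasn and Elovl6 of its group and supplemented 1 the lowest Fasn, and without the 2 samples with the largest Fasn deviations the r of Fasn with Elovl6 was 0.64. Without the 2 with the largest Acaca deviations the r of Acaca with Fasn was 0.21 and with Elovl6 0.30. Without the 2 with the largest Fads1 deviations that of Fads1 with Fads2 was 0.46, so the order of these correlations rested on a few samples. All these values share arrays and normalization and are descriptions.

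**Figure D5:**
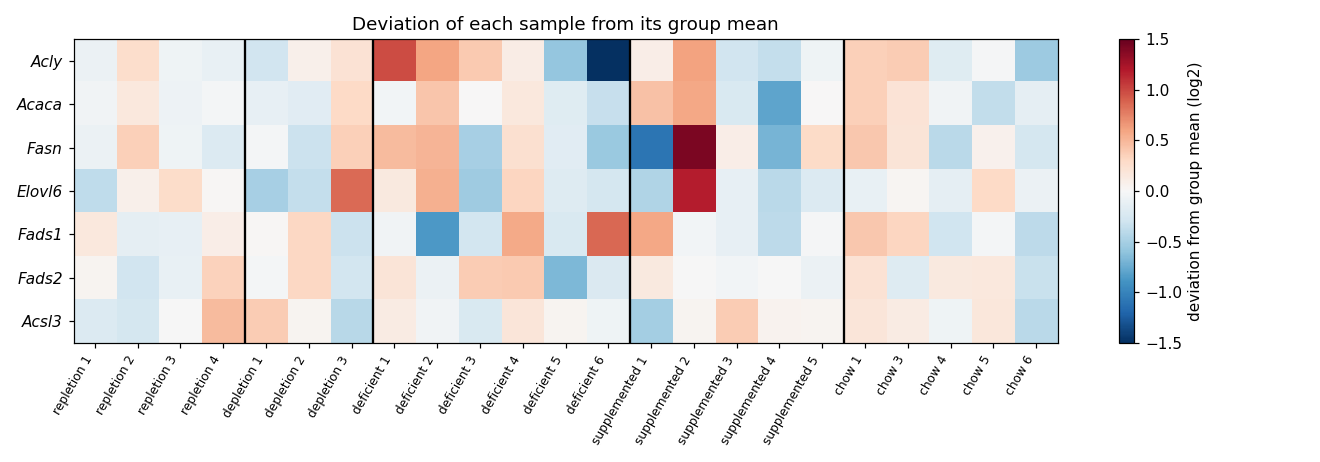
Deviation of each sample from its group mean (colour, log2 units from -1.5 to 1.5) for the 7 genes (rows) and 23 samples (columns, groups parted by black lines). Supplemented 2 is high for Fasn and Elovl6 and deficient 6 is low for Acly and high for Fads1.

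Of 47 other genes of the pathway that were listed, 23 were on the array and 12 or 13 were tested in a comparison. In deficient minus chow 1 was higher and 3 lower of 13, beside 27.4% of all probes called either way. Acsl4, which activates arachidonic acid, was higher (0.51, adjusted p = 0.0332). Acsl1, the main hepatic acyl-CoA synthetase (-0.73, adjusted p = 0.00539), Insig2, which holds SREBPs in the endoplasmic reticulum (-0.73, adjusted p = 0.0236), and Nr1h2, the oxysterol receptor LXR beta (-0.86, adjusted p = 0.000707), were lower. In repletion minus deficient 3 were higher and 1 lower of 12, near the 36.3% of all probes called there, namely Nr1h2 (1.03), Insig2 (0.99) and Acsl1 (0.61) against Acsl4 (-0.83). In depletion minus deficient 1 of 13 was higher (2.63% of all probes), Insig2 (1.18, adjusted p = 0.00922). In repletion minus supplemented 2 of 12 were higher (8.61% of all probes), Acsl1 (0.75) and Nr1h2 (0.62), and in supplemented minus chow 1 of 13 was lower (4.97%), Acsl1 (-0.87, adjusted p = 0.00806). By limma 0 passed in deficient minus supplemented, depletion minus supplemented and repletion minus chow, with 2, 3 and 2 genes at an unadjusted p under 0.05. Acsl1 and Acsl3 thus passed in opposite directions in supplemented minus chow and in repletion minus supplemented. With the fixed block Insig2 in depletion minus deficient still passed (1.53, adjusted p = 0.0109), and the others named here did not.

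Of the listed genes set by fasting and feeding, 5 were on the array and 4 were tested, and 1 of these passed in some of the same comparisons. Cpt1a, which admits fatty acids to mitochondria and is inhibited by malonyl-CoA, was higher in deficient than in supplemented rats (0.70, adjusted p = 0.0143) and than in chow rats (1.09, adjusted p = 6.08e-05), and lower in repletion (-0.79, adjusted p = 0.000941) and depletion (-0.67, adjusted p = 0.0244) than in deficient rats. The shares of all probes called in those directions were 1.73%, 15.4%, 20.8% and 5.04%, in that order. With the array set as a fixed block Cpt1a still passed in depletion minus deficient (-1.19) and not in the other 3 comparisons (adjusted p 0.105 to 0.767). All 5 genes of that list on the array (Pck1, G6pc1, Cpt1a, Pklr and Pdk4) were above background on every array, and the sample means of the list ranged over 11.33 to 11.69 in repletion, 11.22 to 11.74 in depletion, 11.21 to 11.84 in deficient, 11.21 to 11.41 in supplemented and 10.97 to 11.27 in chow. Their part in the differences above was not tested.

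Of the 4 hepatocyte markers, 1 passed against chow. Apoa1 was higher in supplemented (0.33) and in deficient rats (0.28) than in chow rats, beside 4.5% and 15.4% of all probes. With the fixed block Apoa1 passed in supplemented minus chow (0.475) and not in deficient minus chow. Markers of other liver cells moved as well. Of 5 Kupffer cell markers tested, 4 were lower in deficient than in chow, 2 lower in deficient than in supplemented and 3 higher in repletion than in deficient, with sample means of the 6 on the array of 9.78 to 10.06 in repletion, 9.58 to 10.17 in depletion, 9.52 to 9.78 in deficient, 9.87 to 10.22 in supplemented and 9.98 to 10.36 in chow. The shares of all probes called in those directions were 12%, 1.54% and 15.5%. C1qb was lower in repletion than in supplemented rats (-0.46), beside 10.5% of all probes. Cd14 was lower in repletion than in chow rats (-0.74), beside 0.774%. In repletion minus deficient C1qb was at -0.28 without passing. Of 3 stellate cell and fibroblast markers tested, 2 (Col1a1 and Pdgfrb) were lower in deficient than in chow, beside 12% of all probes. The same 2 were higher in repletion than in deficient, beside 15.5%. The third, Dcn, went the other way in both without passing (0.41 and -0.40). Pdgfrb was also lower in deficient than in supplemented rats (-0.52, beside 1.54% of all probes). There Dcn was at 0.55 and Col1a1 at -0.425, neither passing. Pdgfrb was higher in depletion than in deficient rats (0.96, beside 2.63%). In that comparison Dcn (-0.54) and Col1a1 (-0.46) went the other way without passing. Col1a1 was lower in supplemented than in chow rats (-0.73, beside 4.97%). With the fixed block Pdgfrb in depletion minus deficient still passed (0.67), tied there only through deficient 6. None of the other Kupffer, stellate and fibroblast marker differences named here passed with it, and C1qa in repletion minus deficient turned to -0.08. The sample means of the 4 on the array were 8.36 to 8.63 in repletion, 8.27 to 8.47 in depletion, 8.47 to 8.57 in deficient, 8.38 to 8.66 in supplemented and 8.46 to 8.84 in chow. Fat tissue also makes fatty acids. Of 6 adipocyte markers on the array 3 (Adipoq, Pparg and Ucp1) were above background on every array. The 6 averaged 6.56 to 6.69 per sample in repletion, 6.60 to 6.69 in depletion, 6.63 to 6.80 in deficient, 6.62 to 6.77 in supplemented and 6.57 to 6.72 in chow, with overlapping ranges. Of 3 endothelial markers tested, 2 were lower in repletion than in deficient rats, Flt1 (-0.73) and Tek (-0.67), beside 20.8% of all probes, and Flt1 was also lower in depletion than in deficient rats (-0.85), beside 5.04%. With the fixed block Flt1 passed in depletion minus deficient (-0.54), tied there only through deficient 6, beside 39.9% of all probes. Neither Flt1 nor Tek passed with it in repletion minus deficient. The 2 cholangiocyte markers on the array averaged 7.52 to 9.11 per sample in repletion, against 7.50 to 7.97 over all other groups. Only 1 of them, Epcam, was tested, and it passed in no comparison. In repletion it was at 0.052 against chow, 0.095 against deficient and 0.328 against supplemented rats. The part of other cell types in the differences was not tested.

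For each gene the most similar named genes over the 23 samples were ranked by Pearson r among 3695 genes above background on every array. Fasn was closest to Mrpl21 (r = 0.75), Dlat (0.73) and Fdft1 (0.71), and Elovl6 to Serpina7 (0.69), Fkbp11 (0.68) and Fdps (0.67). Fdft1 and Fdps are enzymes of sterol synthesis, and Dlat is a subunit of pyruvate dehydrogenase. Fads1 was closest to Abhd6 (0.86), Klhl12 (0.84) and Sh3bgrl2 (0.84), and Fads2 to Fabp2 (0.82), Samm50 (0.80) and Rnf128 (0.78). Acly was closest to Ikbkb (0.81), Hars2 (0.81) and Nupr1 (0.78), Acaca to Adrb3 (0.75), Ldha (0.73) and Cib2 (0.72), and Acsl3 to Csrp2 (0.76), Lsm11 (0.71) and Ripk3 (0.71). No gene was among the closest 3 of more than 1 of the 7. Over deviations from group means the r of these 21 pairs ranged from 0.31 to 0.82.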

How the data were processed

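The arrays were CodeLink UniSet Rat I, each with biotin-labelled cRNA of 1 liver, per the labels' protocols. Per the file headers, the deposited scanner tables hold the intensity of a spot before and after its local background is subtracted, that background, and a flag (unit other, 0 or 1) that marks spots treated here as defective (54 to 169 per array). A further table gives the authors' processed signal, which is linear and has medians of 0.716 to 0.972 per array. Its values ranked like the scanner intensities (rank correlation 0.997 to 0.9997), so its direction is known, while its normalization is not given in the sources used here. It served as an alternative, with its 28 zeros set to missing.

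Of 10399 spots, 9911 are gene probes and 488 controls. All spots were background corrected by normexp in limma with an offset of 50. After controls were dropped and defective spots set to missing, gene probes were quantile normalized on the log2 scale. The filter on dim probes kept those over the median of the array in 50% or more of any group's samples. A probe counts as above background where its intensity exceeds by 3 median absolute deviations the median of 10 kinds of control spots that sit at background. Symbols came from GEO's platform annotation and were updated by gene identifier from RefSeq (GRCr8), which left 7356 probes with 1 symbol, 86 with several and 2469 with none. The brightest probe stands for a gene. Arrays were joined into a set where over 0.5 of their defective spots overlapped (single linkage). No member spot was defective.

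Groups were compared in 1 fit over all 23 samples with limma 3.58.1 in R 4.3.3, moderated by eBayes, and p-values were adjusted by Benjamini and Hochberg's method across the probes of each comparison (threshold 0.05, 2-sided). Leave-one-out fits that thin a group, and fits within a set, pool the spread over the samples kept. Named genes were the 7 members, other pathway genes that passed, and the 3 most alike genes of each member. Alternatives were other normalization, background, value table, filter, flags, averaging, array set block, replicate block and threshold, and leaving out each sample. Replicate numbers were checked as pairs. Over 36 pairs of samples with the same number in different groups, deviations correlated at a median of -0.037, against 0.016 in other pairs. Of the 36 pairs, 8 exceeded 0.1 and the highest was 0.693. Numbers were therefore not taken to pair samples, though single pairs could not be settled this way. The labels say RNA was not pooled, so each sample was taken as 1 rat.

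The members and lists were chosen with earlier results of these data known. A gene of the fasting and feeding list is not reported here and was left out of it. The limits for nearly identical arrays and the array sets were set with the values known. Nearly identical means a spread under 0.15 and a spread at variable genes under 1.5 times that at steady genes. A first full run used a limit of 1.25, under which only chow 1 and 2 were averaged and 24 samples remained. The limit was widened after those results were seen, because supplemented 5 and 6 were as close (ratio 1.27, against 1.96 to 3.66 in the pairs kept apart). An earlier run filtered probes over the 2 groups compared. Both are given among the alternatives. Python 3.11.15, pandas 2.3.3, numpy 2.4.6 and matplotlib 3.10.9 were also used, and tools were tested on simulated data.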

Additional observations from a re-analysis of the deposited data

Results flagged for a closer look

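Of 28 sets of values tested (7 genes in the 4 groups of 4 to 6 samples), 2 held a sample that stood apart from the rest of its group by Dixon's test at the 95% level, and chance gives about 1 in 20. Acly in repletion 2 was the highest of its group at 13.85, against 13.52 in the next sample. Elovl6 in supplemented 2 was the highest of its group at 9.35, against 8.04 in the next sample.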

How the results depend on the processing

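The values here are numbers of the 7 genes called, beside 1 in deficient minus supplemented, 0 in depletion minus supplemented, 1 in repletion minus supplemented, 0 in repletion minus deficient, 1 in depletion minus deficient, 3 in supplemented minus chow, 3 in deficient minus chow and 1 in repletion minus chow. Deficient minus supplemented had 0 with median scaling, the deposited background subtraction, the authors' value table, no filter, defective spots kept, either array set block, the replicate block and within set 3. The fixed block gave 3 in depletion minus supplemented, 1 in repletion minus supplemented (Fasn in place of Acsl3), 3 in depletion minus deficient, 0 in supplemented minus chow, 0 in deficient minus chow and 4 in repletion minus chow. The random block gave 0 in repletion minus supplemented, 2 in depletion minus deficient, 0 in supplemented minus chow, 1 in deficient minus chow and 5 in repletion minus chow. Within sets there were 2 in depletion minus deficient (1 deficient sample, Acsl3 not called), 1 in supplemented minus chow (1 supplemented sample) and 5 in repletion minus chow. The authors' value table gave 2 in repletion minus supplemented, 2 in repletion minus deficient, 1 in supplemented minus chow and 2 in repletion minus chow. Repletion minus chow had 2 with median scaling and with the deposited subtraction. All 25 arrays as separate samples gave 2 in repletion minus supplemented and 3 in repletion minus chow. A threshold of 0.1 gave 2 in repletion minus supplemented, 3 in repletion minus deficient and 4 in repletion minus chow.

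Other settings were added after seeing the data. Averaging chow 1 and 2 only (24 samples), the treatment run first, gave 2 in repletion minus supplemented, where Fasn passed (0.91, adjusted p = 0.049), and 2 in repletion minus chow, where Elovl6 passed (1.17, adjusted p = 0.0437), and Acsl3 in deficient minus supplemented had an adjusted p of 0.027. Leaving out both deficient 6 and chow 6 gave 2 in repletion minus supplemented and 2 in repletion minus chow. Filtering over the groups compared gave 2 in repletion minus chow.

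The replicate block, on numbers not taken to pair the samples, gave 0 in deficient minus supplemented and 2 in repletion minus supplemented, and 2, 4 and 4 in supplemented minus chow, deficient minus chow and the F test. With 1 sample left out in turn, the counts ranged from 0 to 1 in deficient minus supplemented, 0 to 0 in depletion minus supplemented, 0 to 2 in repletion minus supplemented, 0 to 2 in repletion minus deficient, 0 to 1 in depletion minus deficient, 0 to 4 in supplemented minus chow, 2 to 4 in deficient minus chow, 1 to 4 in repletion minus chow and 5 to 7 in the F test. Of the 10 called differences in those fits, 183 values kept the call, 47 lost it and 0 turned. The called differences that turned direction were Acsl3 in repletion minus supplemented (0.20, fixed block) and in supplemented minus chow (-0.012 with the fixed block and -0.012 within set 1). The cause of these changes was not tested. The number of arrays, 3 to 6 a group, and signals near background at the dim Acaca probe limit what could be seen.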
